A study of Rattus norvegicus with 30 samples.

Results

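Plau encodes urokinase plasminogen activator, and its RNA was followed in rat bone marrow mesenchymal stem cells (BMSCs) through 72 h of culture toward bone (osteogenesis, OS), fat (adipogenesis, AD) or cartilage (chondrogenesis, CH). It is 1 gene of the 9999 gene names in the deposited files and 1 of the 4363 that were tested, and it was found by its name in each file, where it had 1 row. The gene was chosen by its measured values in these same samples, so its levels and differences are a description and carry no test. In undifferentiated cells it lay at 2.25 ± 1.08 CPM (reads scaled to the sample's total; SD, n = 3). It was highest at 3 h of adipogenesis, at 186.9 ± 14.3 CPM (SD, n = 3), and its mean lay above that of 0 h in each of the 9 differentiating groups.

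The cells came from the marrow of 3 female Sprague Dawley rats that were 3 weeks old, and they were induced at passage 2. The 10 groups of 3 samples were undifferentiated cells at 0 h (CON) and cells after 3, 12 and 72 h in a commercial osteogenic, adipogenic or chondrogenic medium. Each sample held cells of 3 cultures that were pooled before RNA isolation. All comparisons with 0 h in the 3 lineages used the same 3 samples, and uninduced cells cultured for 3, 12 or 72 h were not used here, so time in culture and change of medium cannot be told apart from differentiation. Because nothing ties a sample to a rat, p-values measure only the spread between these samples, which may be technical.

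Urokinase is a secreted serine protease that cuts plasminogen into plasmin. It acts at the cell surface, bound to its receptor uPAR, and is held in check by inhibitors of the serpin family. Plasmin dissolves fibrin, cuts matrix proteins, activates several matrix metalloproteinases and releases latent TGF-beta, and in stromal cells the system is known for its part in migration and matrix remodelling.

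The upstream sequence of Plau is shown because it is the stretch next to the annotated start of the RNA measured here. It covers 250 bases before the start annotated by RefSeq on assembly GRCr8, at chr15:3511988-3512237 on the minus strand, and it is given 5′ to 3′ with the GC boxes (GGGCGG on either strand) in capitals.
Plau upstream sequence: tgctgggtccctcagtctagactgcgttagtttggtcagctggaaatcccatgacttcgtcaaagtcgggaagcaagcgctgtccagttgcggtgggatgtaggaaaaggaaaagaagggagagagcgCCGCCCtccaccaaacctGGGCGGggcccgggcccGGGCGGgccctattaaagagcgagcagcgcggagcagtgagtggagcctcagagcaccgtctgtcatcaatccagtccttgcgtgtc
Its GC content was 60.0%, and 74.7% of the 33469 RefSeq promoters of the same length lay lower. The GC box occurred 3 times, beginning 122, 104 and 87 bases before the start, and at least 1 such match stood in 30.5% of all promoters and at least 3 in 7.41%. The Ets core GGAA occurred 4 times; 34.7% of promoters held at least as many and 93.2% at least 1. The TATA box (TATAAA), which 12.9% of promoters held, had 0 matches on either strand in this window. The CCAAT box, present in 34.0%, and the AP-1 motif (TGANTCA), present in 6.34%, also had 0. The motifs do not overlap one another, and a match is a description of letters, not of binding.

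Read totals were 3899609 to 9046719 per sample (median 6579543), and 3 reads, the smallest signal taken as detectable, corresponded to 0.332 to 0.769 CPM. The named genes held 38.9% to 71.4% of these totals, with the lowest share in replicate 3 of adipogenesis at 72 h. Ranks and shares among tested genes therefore do not cover all RNA of a sample. Stromal markers were present in every sample (5 of the 8 listed genes were named in the files, summed 4111.6 to 23217.3 CPM), with Thy1 at 8051.7 CPM at 0 h and Eng and Pdgfrb at or near 0. Most of the sum at 72 h of adipogenesis was Itgb1 (mean 3784.8 CPM), beside Cd44 at 301.4 CPM. At 72 h of adipogenesis Thy1 was at 426.7 CPM (log2 -4.24, limma with Benjamini-Hochberg adjusted p = 1.04e-22; -4.30 without replicate 3 of that group, still called). Of the haematopoietic markers, Cd34, Csf1r and Adgre1 had at most 3, 7 and 16 reads in any sample, and the 2 endothelial markers, Kdr and Tek, summed to 0 to 5.73 CPM. Lineage markers differed. Of the chondrogenic list, Sox9, a master factor of cartilage, stood at 48.1 CPM at 0 h and 1298.6 CPM at 72 h of chondrogenesis, where it passed the limma test, and the matrix protein gene Comp at 0.0464 and 21.6 CPM, while Acan, Col2a1 and Col10a1 were at or near 0. Of the adipogenic list, Plin1, a lipid droplet protein, had 0.101 CPM at 0 h and 2.35 CPM at 72 h of adipogenesis, and Lpl had 720.3 and 1921.1 CPM, a limma call lost without replicate 3 of that group. The fat cell factor Cebpa did not pass there (log2 -0.33), and Pparg had 0.376 CPM there and 2.18 CPM at 72 h of osteogenesis. Comp, Plin1 and Pparg reached 1 CPM only in the 3 samples of their highest group and so entered the fit through it, and no test is given for them. Of the osteogenic list, Sp7, Alpl and Spp1 were at or near 0, and Ibsp, bone sialoprotein, had 2.54 CPM at 0 h, 2.80 CPM at 72 h of osteogenesis and 246.5 CPM at 72 h of chondrogenesis. Alpl encodes an alkaline phosphatase. The paper reports that alkaline phosphatase concentration rose for a time during differentiation toward each lineage. A level at or near 0 here, for Alpl or another gene, therefore need not mean that the gene was not expressed. The reason for the low Alpl level was not tested. One library stood furthest apart. In replicate 3 of adipogenesis at 72 h, 74 tested genes lay more than 2 log2 units from the mean of the other 2 replicates. Next came replicate 1 of adipogenesis at 12 h with 24 and replicate 3 of osteogenesis at 3 h with 18. The latter also had the highest Plau value of its group. The main Plau values and the calls of listed genes at 72 h of adipogenesis are given with and without replicate 3 of that group. In bulk RNA, fewer cells with Plau and less Plau RNA per cell cannot be told apart.

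Undifferentiated BMSCs held little Plau RNA. The 3 samples had 1.72, 1.53 and 3.49 CPM, from 12, 11 and 23 reads, with exact 95% Poisson intervals of 0.888 to 3.0, 0.765 to 2.74 and 2.21 to 5.23 CPM. These intervals cover counting error only, because PCR copies of 1 molecule could not be told from separate molecules. Replicate 3 was the highest, and the coefficient of variation of the 0 h group, 48.0%, was exceeded only by that of 72 h of adipogenesis (68.4%). Every fold against 0 h inherits that spread.

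In osteogenesis Plau was high at 3 h, low at 12 h and high again at 72 h. At 3 h the 3 samples had 38.1, 37.0 and 58.7 CPM, a mean 19.8 times that of 0 h (ratios of single samples 10.6 to 38.3). At 12 h they had 7.08, 9.72 and 8.53 CPM, a mean 3.76 times that of 0 h, and at 72 h 32.7, 31.2 and 28.3 CPM, 13.7 times. All 9 osteogenic samples lay above the 3 samples of 0 h. The share of tested genes that lay wholly above 0 h in the same way was 29.5% at 3 h, 36.3% at 12 h and 28.8% at 72 h. Taken as log2(CPM + 1), a scale that understates the change of low genes, Plau differed from 0 h by 3.83, 1.58 and 3.34, each with an SE of 0.33. The SE of Plau, here and below, rests on 1 spread taken over all 10 groups. That spread includes the uneven samples of 72 h of adipogenesis, so it is not particular to the groups compared. The level at 12 h was 5.28-fold below that at 3 h without overlap (13.7% of tested genes also lay wholly lower), and at 72 h it was 3.64 times that at 12 h, again without overlap (25.3% lay wholly higher).

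Adipogenesis gave the highest level and the widest gap between 2 successive times. The samples of 3 h had 181.8, 175.8 and 203.0 CPM, from 1645, 1117 and 1365 reads, and with a coefficient of variation of 7.65% they were closely matched. Their mean was 83.2 times that of 0 h (single samples 50.4 to 132 times). By 12 h the samples stood at 9.07, 8.65 and 7.40 CPM, 22.3-fold below 3 h (single samples 19.4 to 27.4) and still 3.73 times 0 h. Both adipogenic groups lay wholly above 0 h, as did 36.9% of tested genes at 3 h and 29.7% at 12 h, and the samples of 12 h lay wholly below those of 3 h, as for 21.5% of tested genes. The log2 difference at 3 h, 5.90 (SE 0.33), was the highest of the 4363 genes in that comparison, and the difference of 12 h from 3 h, -4.33, stood at rank 5 from the lowest.

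The value at 72 h of adipogenesis depended on replicate 3. Replicates 1 and 2 had 16.2 and 22.2 CPM, but replicate 3 had 3.48 CPM, from 22 reads, and lay just under the highest sample of 0 h. The group mean of 14.0 ± 9.54 CPM (SD, n = 3) was 6.21 times that of 0 h with overlapping samples (16.8% of tested genes lay wholly above 0 h). Without replicate 3 it was 19.2 CPM, 8.54 times 0 h, and the samples did not overlap. The log2 difference from 0 h was 1.95 with replicate 3 and 2.67 without it. From 12 to 72 h the difference was 0.38 with overlap, 1.09 without replicate 3 and -0.09 without replicate 2 (10.8% of tested genes lay wholly higher at 72 h). In the same replicates 1, 2 and 3 the adipogenic gene Lpl, lipoprotein lipase, had 1160.4, 1387.1 and 3215.7 CPM, and the macrophage marker Adgre1 1.60, 2.84 and 0.317 CPM. Adgre1 had at most 16 reads there, and Csf1r, another marker of the haematopoietic list, at most 1 read. The part of these differences in the Plau values was not tested.

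In chondrogenesis Plau was higher at each later time. The samples of 3 h had 8.69, 8.37 and 7.25 CPM, those of 12 h 28.9, 34.7 and 27.6 CPM, and those of 72 h 44.9, 51.5 and 46.7 CPM. No sample of one time overlapped another, and the means were 3.61, 13.5 and 21.2 times that of 0 h. All 9 samples lay above 0 h, as did 39.0%, 32.6% and 29.0% of tested genes at 3, 12 and 72 h. On the log2 scale its differences from 0 h were 1.53, 3.32 and 3.95 (SE 0.33 each). The mean at 12 h was 3.75 times that at 3 h (15.1% of tested genes also lay wholly higher), and the mean at 72 h was 1.57 times that at 12 h (18.9%). The samples of 72 h were the shallowest of the series, yet each held at least 175 reads of Plau.

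**Figure D1:**
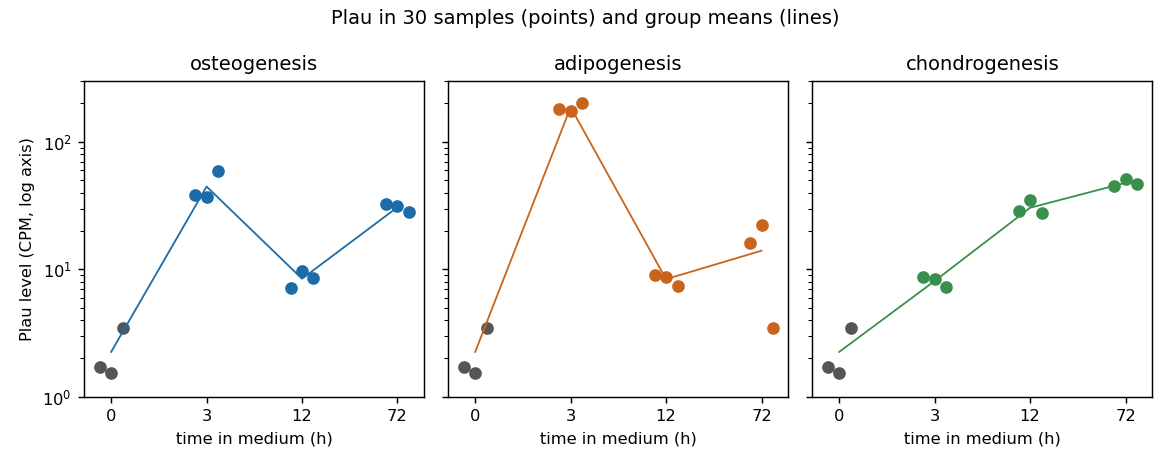
Plau level in CPM (log axis) against hours of differentiation for OS, AD and CH, with a point for each sample, a line through the group means and the 3 shared samples of 0 h in grey. The adipogenic samples are highest at 3 h, at 175.8 to 203.0 CPM, within OS the differentiating samples are lowest at 12 h, and the chondrogenic samples are highest at 72 h, at 44.9 to 51.5 CPM.

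At the same time points the lineages stood in different orders. At 3 h adipogenesis was 4.19 times osteogenesis and 23.1 times chondrogenesis, and osteogenesis was 5.5 times chondrogenesis, all without overlap. The shares of tested genes separated in the same directions were 17.3%, 15.1% and 9.83%. At 12 h chondrogenesis was highest, 3.6 times osteogenesis and 3.63 times adipogenesis without overlap (23.6% and 20.1% of tested genes), whereas osteogenesis and adipogenesis overlapped and differed by 0.01 on the log2 scale (26.1% of tested genes lay wholly higher in osteogenesis). At 72 h chondrogenesis was 1.55 times osteogenesis and 3.42 times adipogenesis, and osteogenesis was 2.2 times adipogenesis, again without overlap (23.8%, 32.8% and 32.8% of tested genes). Both values over adipogenesis depended on its replicate 3, without which chondrogenesis was 2.49 times and osteogenesis 1.6 times adipogenesis. The log2 difference of chondrogenesis from adipogenesis was then 1.28, and that of osteogenesis went from 1.38 to 0.67, still without overlap. The samples of the compared groups did not overlap in 21 of the 24 comparisons made. Without replicate 3 of 72 h of adipogenesis, that group also lay apart from 0 h and from 12 h of adipogenesis. The endothelial marker Tek, a receptor of angiopoietins, was also high in some of the groups where Plau was high. It had 0.351 CPM at 0 h, 2.47 and 4.74 CPM at 3 and 72 h of osteogenesis, 3.19 CPM at 3 h of adipogenesis and 1.03 CPM at 72 h of chondrogenesis, while Kdr had at most 4 reads in any sample. Their part in the Plau values was not tested.

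Ranked by mean, the groups ran from 3 h of adipogenesis through 72 h of chondrogenesis (47.7 ± 3.43 CPM), 3 h of osteogenesis (44.6 ± 12.2), 72 h of osteogenesis (30.7 ± 2.21) and 12 h of chondrogenesis (30.4 ± 3.82) to 72 h of adipogenesis. Below these came 12 h of osteogenesis (8.44 ± 1.32), 12 h of adipogenesis (8.37 ± 0.869), 3 h of chondrogenesis (8.10 ± 0.755; all SD, n = 3) and 0 h. Neighbours in this order overlapped for 72 h of chondrogenesis and 3 h of osteogenesis, for 72 h of osteogenesis and 12 h of chondrogenesis, and for each pair from 72 h of adipogenesis down to 3 h of chondrogenesis. The other neighbours did not overlap. The overlap of 72 h of adipogenesis with 12 h of osteogenesis came only from replicate 3 of the former, at 3.48 CPM. Of the variance of Plau on the log2 scale, 94.9% lay between groups, where the median over tested genes was 78.3%. Its SD over the 30 samples was 1.67 log2 units, rank 99 of 4363, where the median gene had 0.5.

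**Figure D2:**
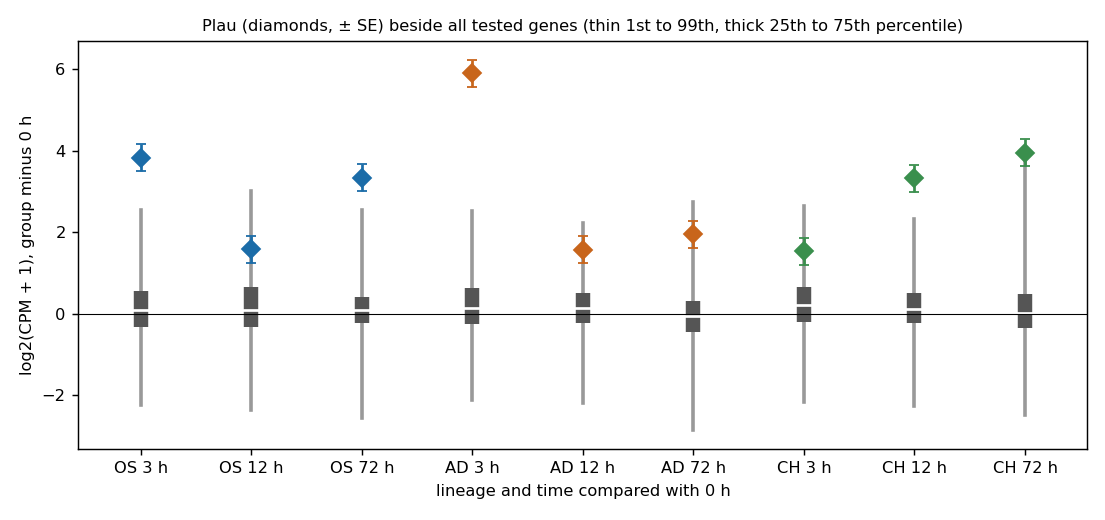
Log2 difference in CPM + 1 from 0 h in the 9 groups (x axis), with Plau as a diamond ± SE and, for all tested genes, a thin bar from the 1st to the 99th percentile, a thick bar from the 25th to the 75th and a white line at the median. Plau lies above the thick bar in every group and is highest at 3 h of adipogenesis, at 5.90.

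The partners of Plau in the plasminogen system were read from a list of 44 genes, of which 23 were named in the files and 12 were tested. The other listed genes, such as Plaur and Plat, were not analysed here. Plasminogen itself, Plg, had at most 4 reads in any sample, and the inhibitor Serpinb2 (PAI-2) at most 3, so neither level could be compared at this depth. Of the 12 tested genes, 10 passed the test against 0 h in at least 1 group (limma, Benjamini-Hochberg adjusted p under 0.05 and a log2 difference of at least 1 in size), beside 53.2% of all tested genes. With 12 genes, this count says little about the list as a whole.

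At 3 h of osteogenesis 1 of the 12 passed upward and 2 downward, beside 11.7% and 6.67% of all tested genes. By 12 h these numbers were 2 and 3 (14.7% and 7.15%). At 72 h 0 passed with limma (7.2% and 5.29%), although 6 had an unadjusted p under 0.05, and edgeR called 2. Adipogenesis at 3 h had 2 upward and 2 downward (12.4% and 6.42%). By 12 h it had 2 and 1 (8.14% and 5.55%), in all 3, against 5 with edgeR and 5 without replicate 1 of that group. By 72 h it had 3 and 3 (6.19% and 9.08%), in all 6 with or without replicate 3, although without it Itgb1 was no longer called and Eno1 was called downward (-1.09, limma adjusted p = 0.0184). Chondrogenesis at 3 h had 2 upward and 3 downward (13.1% and 4.88%). It had 0 and 1 at 12 h (9.44% and 5.0%), where edgeR called 5 in all, and 1 and 2 at 72 h (11.6% and 6.37%), in all 3, against 5 without replicate 3 of that group or of 0 h. The median log2 difference of the 12 lay between -0.58, at 12 h of chondrogenesis, and 0.26, at 72 h of adipogenesis, where the medians over all tested genes were 0.11 and -0.05.

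Among surface proteins 4 were tested and all 4 passed in at least 1 group, as did the 53.2% of all tested genes given above. Anxa2, a membrane-bound annexin that binds plasminogen, had 924.7, 786.7 and 877.8 CPM at 0 h and 8243.9, 8776.0 and 8461.2 CPM at 12 h of osteogenesis, with no overlap. That rise was 3.30 on the log2 scale (SE 0.21, adjusted p = 6.09e-14, limma with Benjamini-Hochberg adjustment). Anxa2 also rose at 3 h of osteogenesis (2.08), adipogenesis (1.91) and chondrogenesis (1.60) and at 12 h of adipogenesis (1.33), and it fell at 72 h of adipogenesis (-1.76) and of chondrogenesis (-1.17; limma adjusted p from 1.78e-09 to 3.54e-05 for these). At 72 h of chondrogenesis, then, Anxa2 lay below 0 h in every sample while Plau lay above it. Lrp1, the scavenger receptor that clears urokinase bound to its inhibitor, fell from 13879.4 CPM at 0 h to 5373.2 CPM at 12 h of osteogenesis (log2 -1.37, SE 0.14, limma adjusted p = 8.51e-10). Its fall at 3 h of chondrogenesis (-1.03) was 0.35 in the other direction under quantile normalization and was lost without replicate 3 of that group. The glycolytic enzyme Eno1, which also binds plasminogen at the surface, rose at 12 h of osteogenesis (1.43, limma adjusted p = 0.000481). Its means there and at 0 h were low, 8.7 and 2.64 CPM, from at most 59 and 24 reads in a sample. Its difference of 1.01 at 3 h of adipogenesis was not called under 9 of 14 other settings. Itgb1, a chain of the integrins that couple to uPAR, fell at 72 h of adipogenesis (-1.03), a call lost under 6 of 14 other settings, namely edgeR, the 3 other scalings, and the fits without replicate 3 of that group or replicate 1 of 0 h. At 72 h of adipogenesis the fall of Anxa2 was -1.31 without replicate 3 and was still called.

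Of the inhibitors 3 were tested and 2 passed in at least 1 group (53.2% of all tested genes). Serping1, the C1 inhibitor, which also blocks plasmin, had 3899.0, 3873.6 and 4044.2 CPM at 0 h and 445.3, 464.9 and 441.0 CPM at 12 h of osteogenesis. The groups were far apart, with a log2 difference of -3.13 (SE 0.14, limma adjusted p = 2.14e-17). It fell in 7 of the 9 groups, by 1.82 to 3.13 on the log2 scale, and stood at 3227.4 ± 119.9 CPM at 72 h of osteogenesis, where the difference of -0.29 did not pass. At 72 h of adipogenesis it rose instead, with 16028.0, 16800.4 and 10271.0 CPM (log2 1.83, limma adjusted p = 3.91e-12; 2.06 without replicate 3, still called). Serpini1, neuroserpin, an inhibitor of plasminogen activators, rose at 12 h of adipogenesis from 1.55 to 5.91 CPM (log2 1.35, limma adjusted p = 0.00186).

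Downstream of plasmin 5 genes were tested and 4 passed in at least 1 group (53.2% of all tested genes). Mmp2, the gelatinase A that cuts denatured and basement membrane collagen, had 15811.3, 15662.7 and 16224.0 CPM at 0 h and 4547.0, 5025.7 and 4752.8 CPM at 12 h of osteogenesis, with no overlap (log2 -1.74, limma adjusted p = 2e-09). It also fell at 3 h of osteogenesis (-1.23), adipogenesis (-1.09) and chondrogenesis (-1.28), the time at which Plau was highest in the first 2 lineages, and these 3 calls were lost under quantile normalization. Tgfb1, the latent growth factor that plasmin can release, had 180.2, 184.7 and 181.8 CPM at 0 h and 747.3, 617.5 and 604.8 CPM at 72 h of chondrogenesis (log2 1.84, limma adjusted p = 3.69e-12). It also passed upward at 3 h of chondrogenesis (1.06, lost under 4 other settings, 3 of scaling and edgeR), and it fell to 62.7 CPM at 72 h of adipogenesis (-1.54, limma adjusted p = 2.22e-10; -1.39 without replicate 3, still called).

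The collagenase Mmp13 and the stromelysin Mmp10 passed only at 72 h of adipogenesis among the 9 comparisons with 0 h. Mmp13 had 0.859, 1.11 and 1.82 CPM at 0 h and 53.6, 64.4 and 3.96 CPM there, a log2 difference of 3.55 (SE 0.54, limma adjusted p = 4.31e-06) that was not called in a fit of those 6 samples alone. Mmp10 had at most 3 reads at 0 h and 9.79, 11.0 and 2.53 CPM at 72 h of adipogenesis. For both genes, as for Plau, replicate 3 was the lowest of the group, and without it both were still called, with Mmp13 at 4.74 on the log2 scale.

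Of the AP-1, Ets and NF-kB factors, families whose members are known to bind the regulatory sequence of urokinase, 16 were listed, 6 named in the files and 4 tested, and 2 passed in at least 1 group (53.2% of all tested genes). In each of 6 groups 1 of the 4 passed, downward for Jun in 3 and upward for Ets2 in 3, beside the shares given above for each direction. Jun, a chain of AP-1, had 22.6, 24.8 and 18.5 CPM at 0 h and fell to 6.89, 7.58 and 6.64 CPM at 3 h of osteogenesis (log2 -1.51, limma adjusted p = 0.000128). Plau was at 37.0 to 58.7 CPM in those same samples. Jun also fell at 12 h of chondrogenesis (-2.28), to 3.71 CPM, and at 12 h of adipogenesis (-1.69), where replicates 1, 2 and 3 had 17.1, 3.13 and 3.70 CPM and the call was lost in a fit of those 6 samples alone. Ets2, an Ets factor activated by Ras signalling, rose at 3 h of adipogenesis from 96.7 to 241.4 CPM (1.32, limma adjusted p = 8.16e-09, not called under quantile normalization), and it passed upward at 3 and 72 h of chondrogenesis (1.21 and 1.19), where 4 and 1 other settings did not call it. Of 36 calls over both lists, 24 held under each of the 14 other settings run.

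**Figure D3:**
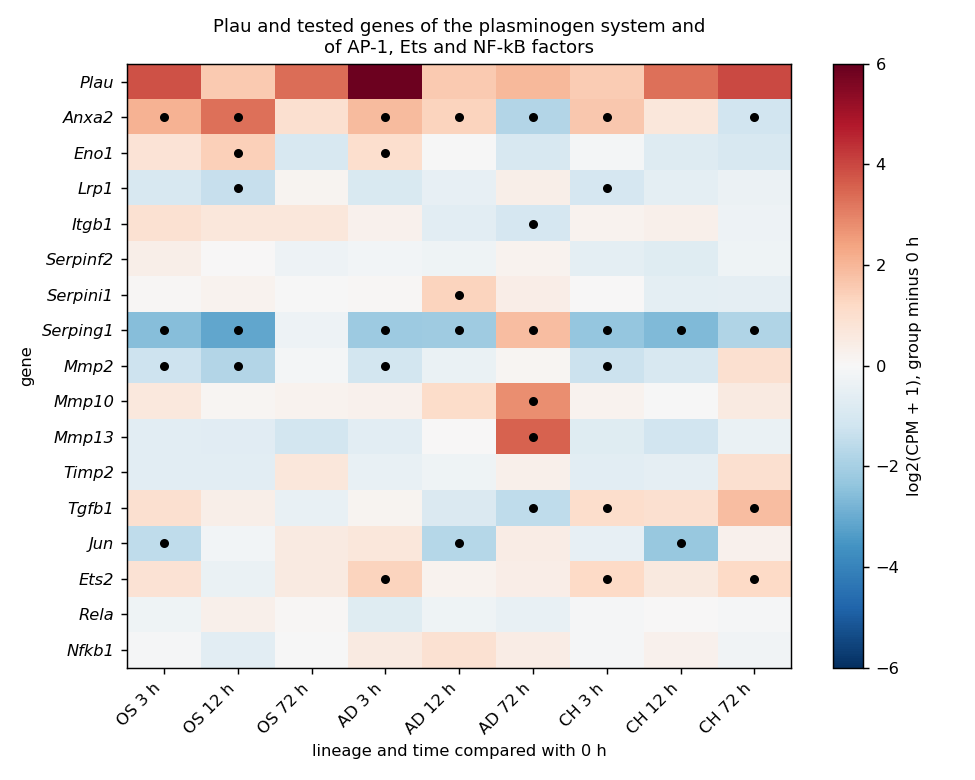
Log2 difference from 0 h for Plau and the 16 tested genes of the 2 lists (rows) in the 9 groups (columns), with a dot where a listed gene passed the test and none for Plau, which was not tested. Serping1 is lower in 7 groups and higher at 72 h of adipogenesis, and Anxa2 is highest at 12 h of osteogenesis.

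The genes whose pattern was most like that of Plau were found by Pearson correlation of log2(CPM + 1) over the 30 samples, which share libraries, depth and the 10 groups, so the coefficients are a description. The highest belonged to Efnb1 (0.86), the transmembrane ligand ephrin-B1, and Has2 (0.84), the hyaluronan synthase. After them came Kctd13 (0.79), a cullin-3 ubiquitin ligase adaptor, Mroh6 (0.79), Sesn2 (0.78), a stress-induced sestrin, Vwa7 (0.74), Phlpp1 (0.73), an Akt phosphatase, Ctrb1 (0.71), a chymotrypsinogen, Nppc (0.70), the C-type natriuretic peptide, and Lix1 (0.69). The median over tested genes was 0.05. The lowest were Klhdc2 (-0.73), Mtus1 (-0.72), Ppp1r21 (-0.70), Stk3 (-0.69), a kinase of the Hippo pathway, and Nap1l3 (-0.69).

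The means of Has2 moved between times as those of Plau did in all 3 lineages. In osteogenesis its means were 642.5, 51.9 and 74.9 CPM at 3, 12 and 72 h, from 16.6 CPM at 0 h. In adipogenesis they were 416.5, 58.5 and 174.5 CPM, with 236.1, 195.4 and 92.0 CPM in the 3 samples of 72 h, and in chondrogenesis 48.3, 248.6 and 273.6 CPM. Its highest group was 3 h of osteogenesis and not of adipogenesis. Efnb1 had 205.6, 71.0 and 137.5 CPM in osteogenesis, 226.1, 76.4 and 70.4 CPM in adipogenesis and 136.5, 170.3 and 144.7 CPM in chondrogenesis, from 53.3 CPM at 0 h.

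How much of the likeness rests on the single highest group differed between genes. Without the 3 samples of 3 h of adipogenesis, over 27 samples, the coefficient of Has2 was 0.84 and that of Efnb1 0.83, but those of Mroh6, Ctrb1, Nppc and Lix1 were 0.61, 0.49, 0.40 and 0.33. Mroh6, Ctrb1 and Lix1 passed the filter on low values only through that group, since outside it 2, 1 and 1 samples reached 1 CPM, so their place among the most similar genes is partly set by the filter. Of the 10 most similar genes, 2 were still among the first 10 without that group, 5 by Spearman correlation, 7 over the 10 group means and 9 after median-ratio scaling. After the group means were taken out, the coefficients of Efnb1 and Has2 were 0.51 and 0.31. Without replicate 3 of 72 h of adipogenesis, over 29 samples, both were 0.85.

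**Figure D4:**
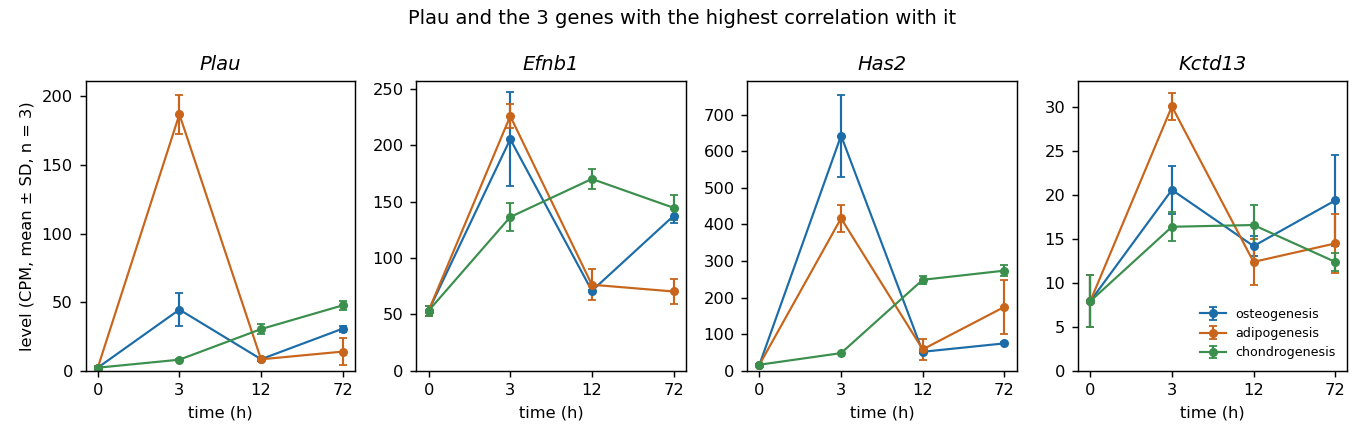
Mean ± SD level in CPM (linear axes, one scale for each gene; n = 3 samples) of Plau, Efnb1, Has2 and Kctd13 against hours of differentiation in the 3 lineages. Has2, like Plau, is lower at 12 h than at 3 h in OS and AD and higher in CH, and its highest group is OS at 3 h.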

How the data were processed

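The data are RNA sequencing of 30 rat BMSC samples. Per the labels, rRNA was removed with Ribo-Zero before library construction, whereas the paper describes an mRNA kit, and both name an Illumina library. The submitters' processing notes name Trimmomatic, HISAT2 and StringTie, without versions. The genome build and the handling of strand are not given in the sources used here. The files call their values FPKM, but what the authors deposited is CPM, since 100.0% of them were whole multiples of 1 step per sample (tolerance 0.02 reads). The step gave the reads and the totals behind them, and no gene length is in the values, so levels are compared between samples and not between genes, and sums over marker lists weight genes by their CPM.

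Each file held 10803 values under 9999 names, and the values of 729 repeated names were summed. A gene entered the fit if 3 or more samples reached 1 CPM (4363 genes). A single model of the 10 groups on log2(CPM + 1) gave 24 comparisons (limma 3.58.1 under R 4.3.3, with lmFit, contrasts.fit and trended eBayes). Calls needed a change of 1 or more on the log2 scale and p under 0.05 after Benjamini-Hochberg adjustment over every gene fitted. The method was checked on simulated data. Promoters came from RefSeq (GRCr8).

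The gene and the lists were chosen with earlier results of these data known. Named were the members of the lists that passed against 0 h, the 10 most and 5 least correlated genes and the 3 nearest named genes on each side of Plau. Alternatives were a pseudocount of 0.1, no filter, median-ratio, quantile and equal-sum scaling, a fit of the 6 samples compared, a replicate block, each replicate left out, and edgeR 4.0.16 (quasi-likelihood) on the recovered reads. Tables used Python 3.11.15, numpy 2.4.6 and pandas 2.3.3, and figures matplotlib 3.10.9. Protein sequences were not used here, and some listed genes are not reported here.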

Additional observations from a re-analysis of the deposited data

Results flagged for a closer look

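From 3 to 12 h Plau moved in opposite directions in different lineages. Every osteogenic and adipogenic sample of 12 h lay below those of 3 h, with log2 differences of -2.25 and -4.33, and every chondrogenic sample lay above them, with 1.78. What drew attention is that no sample went the other way. The difference between the lineages in this step was not tested, because the gene was put forward on these values.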

How the results depend on the processing

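Plau kept the direction of each of its differences from 0 h under each alternative run. Its mean at 3 h of chondrogenesis was 7.17 CPM with median-ratio and 7.24 CPM with quantile scaling, and at 72 h 52.4 CPM with median-ratio scaling. With a pseudocount of 0.1 the log2 differences from 0 h were 3.81, 6.41 and 4.44 at 72 h of osteogenesis, 3 h of adipogenesis and 72 h of chondrogenesis. From 12 to 72 h of osteogenesis the log2 difference was 2.11 with edgeR and 2.01 with equal sums. From 12 to 72 h of adipogenesis it was 1.06 with edgeR. In chondrogenesis it was 2.01 from 3 to 12 h with edgeR, and 0.84 from 12 to 72 h with edgeR and with median-ratio scaling. Chondrogenesis minus adipogenesis at 3 h was -4.61 with edgeR. The cause of these shifts was not tested. Median-ratio scaling moved the median of all genes by -0.25 at 12 h of osteogenesis and by 0.17 at 72 h of adipogenesis.

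Calls among the 12 plasminogen system genes moved more. At 72 h of osteogenesis 0 became 1 with the 6 samples, median-ratio, quantile and equal-sum scaling and 2 with edgeR and a pseudocount of 0.1. At 12 h of adipogenesis 3 became 5 with edgeR, at 3 h of chondrogenesis 5 became 3 with quantile scaling, and at 12 h 1 became 2 with the 6 samples, median-ratio and equal-sum scaling, 3 with a pseudocount of 0.1 and 5 with edgeR. Leaving out 1 replicate gave 0 to 1, 3 to 5 (5 without replicate 1 of 12 h of adipogenesis), 1 to 2 at 12 h and 3 to 5 at 72 h of chondrogenesis (5 without replicate 3 of 72 h or of 0 h). The fall of Lrp1 at 3 h of chondrogenesis became 0.35 under quantile scaling. 

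The replicate numbers showed no sign of pairing. Deviations of same-numbered samples correlated between -0.226 and 0.16 (median -0.00854), and those of differently numbered samples between -0.183 and 0.246 (median 0.00504). Pairing is not settled by this, since the labels do not say what the numbers mean. A replicate block left the difference at 3 h of adipogenesis at 5.90 and changed no count of calls. With 11 to 23 reads of Plau at 0 h, depth limits each fold against that group.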

Other observations

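Of the 4363 tested genes, 188 (4.31%), Plau included, lay wholly above 0 h in the same 8 groups. The moves from 3 to 12 h, lower without overlap in osteogenesis and adipogenesis and higher in chondrogenesis, were shared by 37 genes (0.848%). The lineage order of Plau at 3 h, without overlap, was shared by 48 genes (1.1%). The separations of all 5 time steps in which Plau did not overlap were shared by 9 genes (0.206%), namely Plau, Has2, Fkbp9, Mlxip, Myo1d, Nid1, Pdgfrl, Slc1a4 and Slc1a5. Nid1 encodes the basement membrane protein nidogen-1, and Slc1a4 and Slc1a5 encode neutral amino acid transporters. These patterns were chosen after the values of Plau were seen, so the counts describe these samples and carry no test.

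Values follow for the 6 genes that stand nearest to Plau in the RefSeq order and are named in the files, of which 3 passed in at least 1 comparison with 0 h, beside 53.2% of all tested genes. The median correlation with Plau over all tested genes was 0.05. Vcl, which encodes the adhesion protein vinculin, passed the limma test downward in 4 of the 9 comparisons with 0 h and upward in 0, and its correlation with Plau over the 30 samples was -0.06. Its fall at 72 h of adipogenesis (-1.14) is given only with all replicates. Dnajc9 passed upward in 2 comparisons (correlation -0.07) and Cfap70 in 1 (0.48). Vdac2, Comtd1 and Synpo2l passed in 0 of the 9, with correlations of -0.08, 0.27 and 0.38.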
